A study of Mus musculus with 27 samples.

Results

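The transcriptomes of macrophages and neutrophils sorted from cisplatin-treated mouse mammary tumours were compared in 7 of the 27 libraries of the study. They were chosen by their labels: 4 libraries of intratumoral macrophages and 3 of intratumoral neutrophils, all from mice given cisplatin together with a control antibody. Every mouse was of the K14cre;Cdh1F/F;Trp53F/F strain, in which a Cre recombinase driven by the keratin 14 promoter deletes E-cadherin and p53 from keratin 14-expressing epithelium, so that mammary tumours arise de novo. The cisplatin-treated mice were killed 1 day after the second cisplatin injection. The sorted leukocytes carry the floxed alleles, and the promoter is an epithelial one, so the deletion is not aimed at them. For a single comparison at the end, 4 macrophage and 4 neutrophil libraries of mice given the control antibody without cisplatin were used, which were killed when the tumour reached 100 mm2. Treatment and time of killing differ together between these sets and cannot be told apart. The other 12 libraries, from mice given an antibody to the CSF-1 receptor with or without cisplatin, entered only the shared estimate of the spread.

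Macrophages and neutrophils are the phagocytes of the innate immune system. Macrophages depend on the CSF-1 receptor, live long in tissue, take up dying cells, degrade them in lysosomes and handle the cholesterol and iron this brings. Neutrophils mature in bone marrow under G-CSF, carry preformed granules of proteases and antimicrobial proteins, follow chemokines that bind CXCR2 and die within days. Cisplatin crosslinks DNA and kills tumour cells, which leaves debris for phagocytes to remove. Both cell types are drawn to mammary tumours, where either can affect how the tumour responds to chemotherapy.

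Values are read counts that the authors divided by a factor per library, so they compare a gene between libraries but not different genes with each other, since they are not per length. A value of 1 is the lowest that is listed. The libraries held 1301069 to 7498248 decoded reads in macrophages and 1000623 to 1692581 in neutrophils. The ribosomal RNA precursor Rn45s took 13.9% to 18.5% of the reads in macrophages and 5.85% to 8.48% in neutrophils, without overlap, and its part in the results was not tested. Many values had lost their decimal point, and its place was restored from the requirement of whole reads and from the level of the gene in the same group; values whose place stayed uncertain, 4.22% in these 7 libraries, were left out. Cells were sorted by flow cytometry, and 10 ng of total RNA per library was amplified before sequencing. The gates are not given in the sources used here. Nothing in the labels says that libraries came from separate mice, and the p-values therefore reflect the variation among libraries, part of which could be technical.

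Of 9996 genes, 8996 were tested. In macrophages 2735 genes (30.4%) were higher and 2553 (28.4%) were lower than in neutrophils at an adjusted p under 0.05. By a margin of more than 2-fold, 545 genes (6.06%) were higher and 983 (10.9%) were lower. The tests are limma's, on log2(value + 1), with Benjamini-Hochberg adjustment over all genes, and every adjusted p below is of this kind. Log2 fold changes are macrophages over neutrophils with their standard error (SE). The median over all tested genes was 0.14, so the list medians given below stand against that value. List counts stand against the 30.4% higher and 28.4% lower of all genes. With median-of-ratios rescaling the median moved to 0.35 and the more-than-2-fold split to 798 higher and 830 lower. Without neutrophil library 2 the genes more than 2-fold higher numbered 232. With decimal points restored without knowledge of the groups, 114 were more than 2-fold higher and 393 lower, among 8122 tested. Of the 545 genes, 336 could be tested in that way, of which 321 were higher at an adjusted p under 0.05 and 0 had the opposite direction. Of the 983 genes, 697 could be tested, of which 650 were lower at an adjusted p under 0.05 and 3 had the opposite direction. In 5321 tested genes (59.1%) the values of the 2 groups did not overlap. Across genes, libraries correlated at 0.920 to 0.968 within macrophages, 0.931 to 0.938 within neutrophils and 0.624 to 0.758 between them. The first principal component held 78.2% of the variance and put the macrophage libraries at 42.4 to 62.5 and the neutrophil libraries at -92.6 to -65.2. Neutrophil library 2 lay farthest out. In these bulk samples, a lower value from fewer cells of one type cannot be told apart from less RNA per cell.

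**Figure D1:**
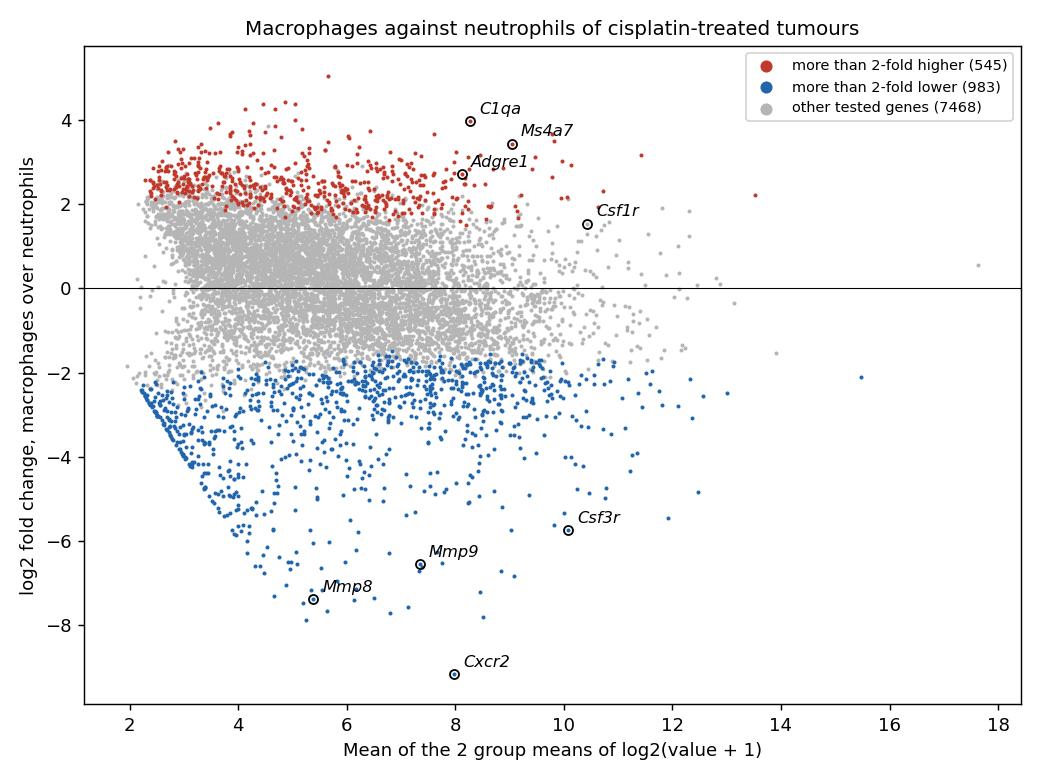
Each point is 1 of 8996 tested genes, with its mean log2(value + 1) over both groups on the x axis and its log2 fold change of macrophages over neutrophils on the y axis. Red points are the 545 genes more than 2-fold higher in macrophages, blue points the 983 more than 2-fold lower and grey points the rest; labelled genes are markers. The straight edge at the lower left holds genes listed at or near 1 in macrophages.

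The macrophage libraries carried the markers of their label. All 19 macrophage markers were higher in macrophages, 14 of them by more than 2-fold, with a median log2 fold change of 2.82. The C1q subunits, which opsonise apoptotic cells and start the classical complement cascade, were among those with large differences. They lie side by side on chromosome 4 of mm10, C1qa at chr4:136895917-136898803, C1qb at chr4:136880129-136886187 and C1qc at chr4:136889804-136893065, all on the minus strand (GENCODE vM21 annotation). C1qa had 928, 1247, 1577 and 1218 in macrophages, against 100.5, 79.6 and 57.0 in neutrophils (log2 fold change 3.97 ± 0.39, adjusted p = 6.4e-09). C1qb had 2704, 2747, 3866 and 2990.2 in macrophages, against 284, 199.8 and 338 in neutrophils (log2 fold change 3.50 ± 0.34, adjusted p = 6.9e-09). C1qc had 2794, 2806, 4058 and 3002 in macrophages, against 248, 186 and 328 in neutrophils (log2 fold change 3.65 ± 0.32, adjusted p = 9.1e-10). The lowest macrophage library lay far above the highest neutrophil library for each subunit. Adgre1, which encodes F4/80, had 746, 683, 790.3 and 650.1 in macrophages, against 79.6, 76.2 and 209.6 in neutrophils (log2 fold change 2.71 ± 0.33, adjusted p = 2.2e-07). Csf1r, the receptor through which CSF-1 keeps macrophages alive, had 2452, 2002, 2449.7 and 2508 in macrophages, against 976, 519.7 and 1044 in neutrophils (log2 fold change 1.53 ± 0.26, adjusted p = 1.8e-05), which passed the test but not the margin of 2-fold. Neutrophil libraries thus held a level of Csf1r that was lower but not near the lowest listed value. Ms4a7, a membrane protein of tissue macrophages, had 2217, 1323, 1703 and 1782 in macrophages, against 154, 108 and 241 in neutrophils (log2 fold change 3.43 ± 0.35, adjusted p = 1.3e-08). Trem2, a lipid-sensing receptor of phagocytes, had 250.4, 176, 286 and 253 in macrophages, against 15.2, 20.3 and 35.7 in neutrophils (log2 fold change 3.36 ± 0.37, adjusted p = 6.3e-08). Apoe, which carries cholesterol out of loaded macrophages, had 5846, 12501, 9349 and 6716 in macrophages, against 1099.5, 747 and 935 in neutrophils (log2 fold change 3.17 ± 0.54, adjusted p = 2.6e-05). None of these values overlapped between the groups. C1qa, Adgre1 and Trem2 could not be tested with decimal points restored without the groups.

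The promoters of C1qb and C1qc are shown because these neighbours differed together. The windows run from 250 bases before to 50 bases after the gene's start (RefSeq, GRCm38.p6), read on the gene's strand, which is minus for both, and capitals mark GAGGAA on either strand, a core recognised by PU.1, the transcription factor of myeloid identity. The C1qb window is chr4:136886151-136886450 and the C1qc window chr4:136892865-136893164.
C1qb: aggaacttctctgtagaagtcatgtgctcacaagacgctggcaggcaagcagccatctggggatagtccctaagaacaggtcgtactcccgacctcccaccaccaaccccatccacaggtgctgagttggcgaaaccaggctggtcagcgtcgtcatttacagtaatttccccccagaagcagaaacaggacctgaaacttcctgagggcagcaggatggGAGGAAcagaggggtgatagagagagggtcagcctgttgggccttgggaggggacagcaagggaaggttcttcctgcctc
C1qc: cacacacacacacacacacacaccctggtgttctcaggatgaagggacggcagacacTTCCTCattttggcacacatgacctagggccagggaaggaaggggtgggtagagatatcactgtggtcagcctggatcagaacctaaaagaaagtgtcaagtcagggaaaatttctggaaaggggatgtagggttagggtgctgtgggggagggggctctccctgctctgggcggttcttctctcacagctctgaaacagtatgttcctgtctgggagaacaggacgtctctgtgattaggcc
GAGGAA on either strand occurred in 31.5% of the 6917 tested genes with a promoter entry, in 33.3% of the 399 such genes more than 2-fold higher in macrophages and in 37.3% of the 759 more than 2-fold lower. A match describes the letters of the window and is not evidence of binding.

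The neutrophil libraries carried the markers of their label as well. Of 18 neutrophil markers in the table, 14 could be tested, and all of these were more than 2-fold lower in macrophages, with a median log2 fold change of -7.26. Where macrophage values stood near 1, the fitted fold change depends on the pseudocount and is not a bound. Csf3r had 93.1, 252, 165 and 123 in macrophages, against 7456, 9385 and 7134 in neutrophils (log2 fold change -5.74 ± 0.33, adjusted p = 7.8e-13). This is the receptor for G-CSF, which drives neutrophil production. Cxcr2, the receptor for neutrophil-attracting chemokines, had 5.91, 5.67 and 24.3 in 3 decoded macrophage libraries, against 3996, 7582 and 7274 in neutrophils (log2 fold change -9.16 ± 0.72, adjusted p = 5.6e-10). Mmp8, the collagenase of secondary granules, had 1, 4.54, 3.87 and 1 in macrophages, against 189.6, 2138 and 384 in neutrophils (log2 fold change -7.39 ± 0.76, adjusted p = 1.2e-08). No macrophage library came near the neutrophil range for either gene, and neutrophil library 2 was the highest for both. Mmp9, the gelatinase of tertiary granules, had 31.8, 13.6, 8.39 and 16.7 in macrophages, against 1012, 2304 and 1656 in neutrophils (log2 fold change -6.55 ± 0.52, adjusted p = 3.7e-10). Hdc, which makes histamine, had 51.1 and 10.5 in 2 decoded macrophage libraries, against 2872, 8771 and 6601 in neutrophils (log2 fold change -7.81 ± 0.68, adjusted p = 1.5e-09). Il1r2, the decoy receptor for interleukin-1, had 10.3, 160.0, 109.8 and 129.6 in macrophages, against 2760.2, 6886 and 2959 in neutrophils (log2 fold change -5.74 ± 0.59, adjusted p = 1.6e-08). S100a8 and S100a9, the subunits of calprotectin, could not be tested because a single macrophage value of each was decoded. S100a8 had 4724, 20258 and 4747 in neutrophils, and even the largest possible macrophage values were 199, 715 and 205, beside the decoded 68.2. S100a9 had 10398, 40212 and 8414 in neutrophils, and its largest possible macrophage values were 347, 125 and 221, beside the decoded 94.3. For Cxcr2 and Hdc too, the largest possible values of the undecided macrophage libraries, at most 591, lay below every neutrophil library. Cxcr2, Mmp9 and Hdc could not be tested with decimal points restored without the groups. The neutrophil marker list summed to 374 to 932 in macrophages, without the undecided values, against 40440 to 132200 in neutrophils.

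**Figure D2:**
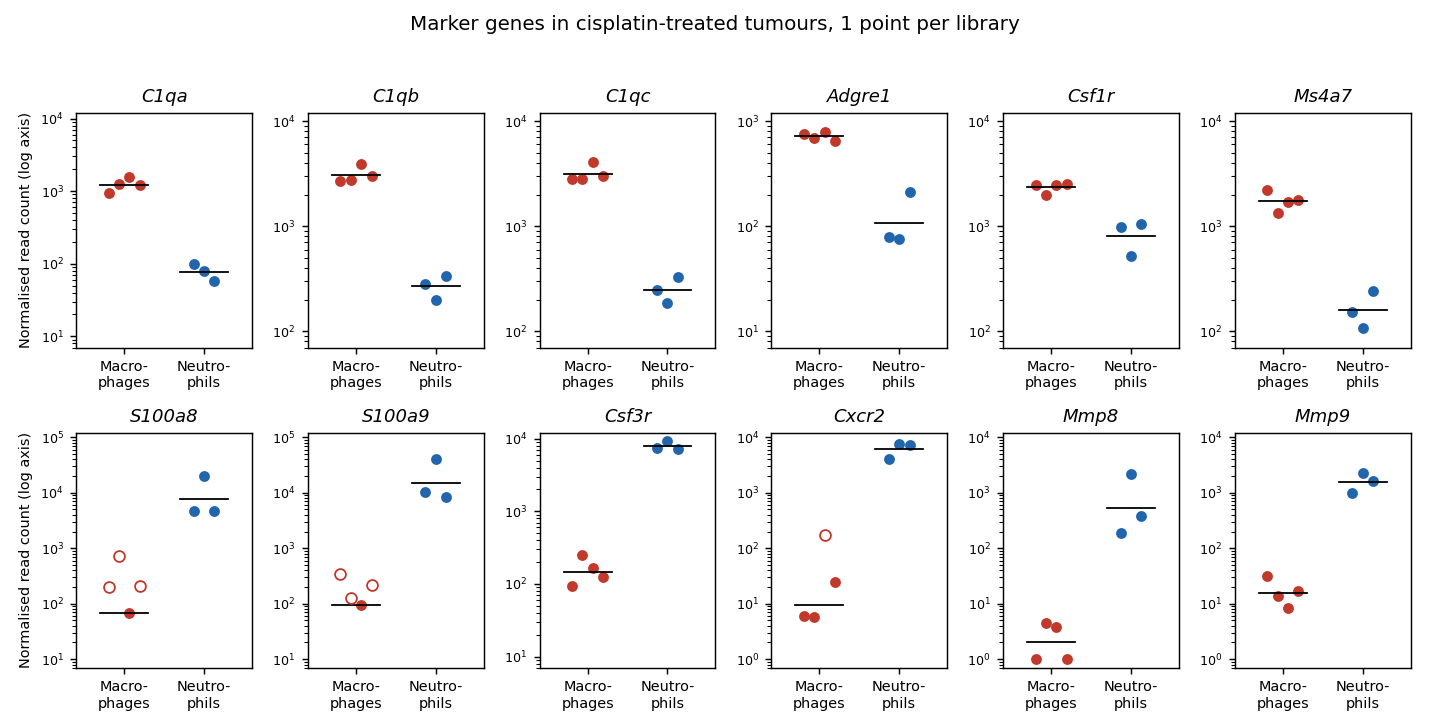
Values of 12 marker genes in each library on a log axis, macrophages (red, 4 libraries) left of neutrophils (blue, 3 libraries), with a bar at the geometric mean of the decoded values. The 6 genes of the upper row are higher in macrophages and the 6 of the lower row are higher in neutrophils, without overlap in any panel; open symbols are macrophage values of undecided place, drawn at their largest possible value.

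The promoters of 3 neutrophil markers are shown beside them, with GAGGAA and, in Mmp8, TTNNGCAA, a C/EBP site, in capitals on either strand. All 3 genes lie on the plus strand. The windows are chr9:7558179-7558478 for Mmp8, chr4:126024409-126024708 for Csf3r and chr1:74153744-74154043 for Cxcr2.
Mmp8: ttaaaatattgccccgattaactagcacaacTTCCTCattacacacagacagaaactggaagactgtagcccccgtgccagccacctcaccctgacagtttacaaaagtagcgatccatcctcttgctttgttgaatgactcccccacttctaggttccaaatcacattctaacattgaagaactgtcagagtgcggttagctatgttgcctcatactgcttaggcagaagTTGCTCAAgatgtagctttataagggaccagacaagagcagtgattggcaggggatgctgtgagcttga
Csf3r: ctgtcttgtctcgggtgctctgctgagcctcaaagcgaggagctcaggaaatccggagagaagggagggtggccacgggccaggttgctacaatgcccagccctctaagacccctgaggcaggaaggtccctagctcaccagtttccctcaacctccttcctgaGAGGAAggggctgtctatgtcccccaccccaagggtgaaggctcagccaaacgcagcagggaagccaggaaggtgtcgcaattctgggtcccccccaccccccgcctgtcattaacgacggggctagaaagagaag
Cxcr2: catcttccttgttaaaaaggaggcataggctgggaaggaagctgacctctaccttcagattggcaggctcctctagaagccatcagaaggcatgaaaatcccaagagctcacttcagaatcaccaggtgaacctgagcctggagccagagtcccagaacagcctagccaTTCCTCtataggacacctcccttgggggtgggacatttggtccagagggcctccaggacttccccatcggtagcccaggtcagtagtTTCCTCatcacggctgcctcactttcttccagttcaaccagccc
The letters TTNNGCAA on either strand occurred in 10.4% of tested genes with an entry, in 14.0% of those more than 2-fold higher in macrophages and in 12% of those more than 2-fold lower.

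Each cell type also held some RNA of the other's markers and of genes listed as markers of further cell types. Whether the sorted cells or other cells made this RNA, and its part in the results, was not tested. The macrophage marker list summed to 27120 to 35470 in macrophages and 3506 to 5311 in neutrophils. All list sums here leave out undecided values, so a low sum can reflect a missing member. The monocyte list was mixed: 2 of 8 tested members were higher in macrophages and 6 were lower. Ccr2, which brings monocytes into tissue, had 866, 426, 675 and 922 in macrophages, against 165 and 315 in 2 decoded neutrophil libraries (log2 fold change 1.60 ± 0.46, adjusted p = 0.0052), with a possible value between 60.9 and 609 in undecided neutrophil library 2. Siglecf, a marker of eosinophils, had 1.48, 2.27, 1 and 1.62 in macrophages, against 584, 252 and 261 in neutrophils (log2 fold change -7.05 ± 0.62, adjusted p = 1.2e-09), and the eosinophil list of 4 measured genes summed to 5.66 to 8.94 in macrophages and 278 to 627 in neutrophils. Ccr3, the eotaxin receptor, had 5.17, 2.27, 1.51 and 3.24 in macrophages, against 36.0, 15.2 and 21.4 in neutrophils (log2 fold change -2.64 ± 0.58, adjusted p = 0.00043), so that both tested members of the list were lower in macrophages. The remaining members, Ear1 and Ear2, stayed under 10 in all 7 libraries. The mast cell and basophil list of 9 measured genes summed to 9.08 to 13.7 in macrophages and 71.4 to 153 in neutrophils, with Fcer1a and Tpsb2 listed at 1 in all 7 libraries. The 2 members that could be tested, Kit and Il1rl1, were both more than 2-fold lower in macrophages (median -4.23). The B cell list of 6 measured genes summed to 13.6 to 59.7 in macrophages and 9.77 to 26.8 in neutrophils, with Pax5 listed at 1 in all 7. Of 2 measured T cell genes, Cd3d was listed at 1 in all macrophage libraries and Cd4 had 117, 114 and 103 in 3 decoded macrophage libraries, against 11.4, 1 and 7.13 in neutrophils (log2 fold change 4.26 ± 0.43, adjusted p = 1.7e-08). The dendritic cell list of 6 measured genes summed to 6.22 to 21.4 in macrophages and 17.2 to 51.3 in neutrophils, where its member Ccr7 was undecided in every library. The epithelial list of 5 measured genes summed to 4.0 to 88.5 in macrophages and 32.5 to 102 in neutrophils. Its member Cdh1 was undecided in macrophage library 1 (between 5.17 and 517) and in macrophage library 4 (between 9.72 and 972). The low sums of these libraries therefore lack it. The fibroblast and endothelial list of 8 measured genes summed to 101 to 170 in macrophages and 192 to 1229 in neutrophils. Its highest sum came from neutrophil library 3, in which the collagen genes Col1a1 and Col1a2 had 237 and 416.

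Beyond the markers, several of the largest differences were in transporters, ecto-enzymes and receptors. The genes of this paragraph were chosen among those whose groups did not overlap, which held for 59.1% of all tested genes. Their lack of overlap is therefore set by the choice. Fcrls, an Fc receptor-like protein of macrophages, had 389, 227, 226 and 344 in macrophages, against 3.79, 1.69 and 51.3 in neutrophils (log2 fold change 5.04 ± 0.70, adjusted p = 1.8e-06). Slco2b1, an organic anion transporter, had 165, 76.0, 149 and 173 in macrophages, against 1.90, 3.39 and 18.5 in neutrophils (log2 fold change 4.43 ± 0.58, adjusted p = 6.5e-07). Both were lowest in neutrophil libraries 1 and 2 and several times higher in neutrophil library 3, still below every macrophage library. Leaving out 1 neutrophil library at a time gave log2 fold changes of 4.19 to 6.33 for Fcrls and 3.87 to 5.24 for Slco2b1. The highest of each came without neutrophil library 3. Enpp1, an ecto-enzyme that breaks down extracellular ATP and cGAMP, had 131, 128, 171 and 175 in macrophages, against 15.2, 3.39 and 4.28 in neutrophils (log2 fold change 4.39 ± 0.43, adjusted p = 1.4e-08). Fcgrt, the neonatal Fc receptor that recycles IgG, had 154, 82.8, 233 and 172 in macrophages, against 9.48, 13.5 and 24.2 in neutrophils (log2 fold change 3.27 ± 0.41, adjusted p = 5.1e-07). Col14a1, a fibril-associated collagen, had 446, 172, 272 and 462 in macrophages, against 13.3, 15.2 and 55.6 in neutrophils (log2 fold change 3.74 ± 0.64, adjusted p = 3.2e-05). On the lower side stood Hcar2, a receptor for hydroxybutyrate and niacin, with 27.3, 101, 53.4 and 24.8 in macrophages, against 4379, 8935 and 2704 in neutrophils (log2 fold change -6.72 ± 0.52, adjusted p = 1.5e-10). Sgms2, a sphingomyelin synthase, had 14.8, 21.6, 15.1 and 9.72 in macrophages, against 1039, 2428 and 1763 in neutrophils (log2 fold change -6.71 ± 0.40, adjusted p = 3.8e-12). Stfa2, a stefin inhibitor of cysteine proteases, had 1, 2.27, 1.94 and 1 in macrophages, against 311, 2797 and 227 in neutrophils (log2 fold change -7.87 ± 0.80, adjusted p = 9.2e-09). Neutrophil library 2 was the highest for all 3. Reads of Stfa2, its relative BC100530 and the Mrgpra2a and Mrgpra2b pair may be split between near-identical copies. Fcrls, Slco2b1, Enpp1, Fcgrt, Hcar2 and Sgms2 could not be tested with decimal points restored without the groups. Haptoglobin, encoded by Hp, had 1, 14.8, 2.37 and 3.24 in macrophages, against 373, 1066 and 244 in neutrophils (log2 fold change -6.64 ± 0.59, adjusted p = 9.9e-10). The antimicrobial granule protein gene Pglyrp1 had 1, 1, 1 and 1.62 in macrophages, against 167, 378 and 194 in neutrophils (log2 fold change -6.76 ± 0.49, adjusted p = 3e-11), and with a pseudocount of 10 in place of 1 its log2 fold change was -4.43.

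Among colony-stimulating factors and their receptors, the receptors split by cell type. Besides Csf1r and Csf3r, the shared beta chain Csf2rb, which serves GM-CSF, had 1561, 3209, 1569 and 933 in macrophages, against 3792, 6836 and 5848 in neutrophils (log2 fold change -1.70 ± 0.38, adjusted p = 0.0005), but did not pass with quantile normalisation (log2 fold change -0.45). The alpha chain Csf2ra had 218, 372, 349 and 275 in macrophages, against 201, 352 and 693 in neutrophils, with overlapping values, and did not pass (log2 fold change -0.30 ± 0.38, adjusted p = 0.5). The ligand Csf1, chosen after its values were seen, could not be tested. It had 1247, 1737 and 1825 in neutrophils, while its largest possible macrophage values were 126, 235 and 119 beside the decoded 85.1. Csf1r was thus lower, and the transcript of its ligand higher in every library, in neutrophils. The G-CSF gene Csf3 had 1, 1, 2.37 and 1 in macrophages, against 13.5 and 18.5 in 2 decoded neutrophil libraries (log2 fold change -2.89 ± 0.57, adjusted p = 0.00014), values near the lowest listed in both, and -1.19 with a pseudocount of 10.

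Of 30 myeloid transcription factors tested, 8 were higher in macrophages, 12 were lower and 10 did not pass (median -0.16). With quantile normalisation 13 were higher and 9 lower. Maf, a factor that holds macrophages in their differentiated state, had 319, 235, 333 and 333 in macrophages, against 32.2, 40.6 and 89.8 in neutrophils (log2 fold change 2.60 ± 0.44, adjusted p = 3e-05). Irf8, which favours monocytic over granulocytic fate, had 114, 197, 132 and 104 in macrophages, against 24.6, 20.3 and 38.5 in neutrophils (log2 fold change 2.26 ± 0.41, adjusted p = 5.9e-05). All macrophage values of both genes exceeded all neutrophil values, and neutrophil library 3 was the highest neutrophil library for each. Maf and Irf8, like Cebpa below, could not be tested with decimal points restored without the groups. Cebpa, needed early in granulocyte and monocyte development, had 165, 195, 229 and 175 in macrophages, against 32.2, 23.7 and 44.2 in neutrophils (log2 fold change 2.52 ± 0.40, adjusted p = 1.2e-05). Klf4, a factor of monocytic differentiation, had 482, 444, 876 and 419.5 in macrophages, against 182, 115 and 149.7 in neutrophils (log2 fold change 1.85 ± 0.36, adjusted p = 0.00012). Among the lower genes, Bhlhe40 had 579, 988, 750.3 and 512 in macrophages, against 3949, 4843 and 1888 in neutrophils (log2 fold change -2.27 ± 0.30, adjusted p = 7.5e-07). Klf6 had 861, 1230.1, 1199.9 and 846 in macrophages, against 2764, 4813 and 3628 in neutrophils (log2 fold change -1.84 ± 0.29, adjusted p = 1e-05). Cebpd, a C/EBP factor of the inflammatory response, had 8.12, 6.81, 8.39 and 7.56 in macrophages, against 149.8, 141 and 151 in neutrophils (log2 fold change -4.09 ± 0.28, adjusted p = 1.7e-11), but with decimal points restored without the groups the log2 fold change was -0.90. The PU.1 gene Spi1, chosen after its values were seen, had 272, 230.4, 277 and 253 in macrophages, against 464, 419.8 and 448 in neutrophils (log2 fold change -0.78 ± 0.23, adjusted p = 0.0058). Quantile normalisation gave Bhlhe40 a log2 fold change of -1.21 and Klf6 one of -0.70, and Spi1 no longer passed, at -0.11.

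Complement was divided by component. Of 18 tested genes, 10 were higher, 6 lower and 2 did not pass (median 1.79). Besides C1q, the higher genes included C4b, the next component of the classical pathway, with 335, 249, 819 and 407 in macrophages, against 30.3, 86.3 and 49.9 in neutrophils (log2 fold change 2.98 ± 0.42, adjusted p = 3.7e-06). C3ar1, the receptor for C3a, had 2239, 1888, 2717 and 2006 in macrophages, against 315, 225 and 603 in neutrophils (log2 fold change 2.64 ± 0.40, adjusted p = 7.5e-06). C3 itself went the other way. C3 had 145, 162, 424 and 90.7 in macrophages, against 1793, 2339.5 and 1164 in neutrophils (log2 fold change -3.28 ± 0.46, adjusted p = 1.7e-06). The second C5a receptor, C5ar2, had 41.4, 52.2, 37.4 and 36.7 in macrophages, against 157, 151 and 245 in neutrophils (log2 fold change -2.09 ± 0.24, adjusted p = 1.1e-07). No library of one group reached the other group for C4b, C3ar1, C3 or C5ar2.

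Pattern and antibody receptors held genes of both directions. Of 16 Toll-like receptor genes tested, 6 were higher and 5 lower (median 0.43), shares near the 30.4% higher and 28.4% lower of all genes. The higher ones were Tlr3, Tlr7, Tlr8, Tlr9, Unc93b1 and Ticam1, which sense nucleic acids in endosomes or serve those receptors. With decimal points restored without the groups Tlr8 did not pass, at a log2 fold change of 0.42 against 1.61, and without neutrophil library 1 Ticam1 did not, at 0.81 against 1.22. Tlr7 had 289, 303, 481 and 462 in macrophages, against 26.5, 74.5 and 131 in neutrophils (log2 fold change 2.53 ± 0.40, adjusted p = 8.3e-06). Unc93b1 had 590.1, 504, 668 and 577 in macrophages, against 186, 196 and 188 in neutrophils (log2 fold change 1.61 ± 0.24, adjusted p = 4.1e-06). Tlr13, an endosomal sensor of ribosomal RNA, was lower, with 543, 428, 649 and 614 in macrophages, against 1012, 2761 and 1794 in neutrophils (log2 fold change -1.63 ± 0.30, adjusted p = 4.9e-05), and -0.66 with quantile normalisation. Among genes of lipopolysaccharide sensing, Ly96 had 94.5, 57.9, 112 and 70.7 in macrophages, against 85.3, 55.9 and 99.8 in neutrophils and did not pass (log2 fold change 0.05 ± 0.34, adjusted p = 0.9). Tlr4 had 157, 123, 168 and 151 in macrophages, against 336, 1432 and 1211 in neutrophils (log2 fold change -2.48 ± 0.43, adjusted p = 2.6e-05). Its co-receptor Cd14 had 4029, 2941, 4508 and 2795 in macrophages, against 8521, 37034 and 23726 in neutrophils (log2 fold change -2.48 ± 0.49, adjusted p = 0.00013). Neutrophil library 1 was the lowest neutrophil library for both, yet above all macrophages, and Cd14 had -1.23 with quantile normalisation. The adaptor Myd88 had 39.9, 60.1, 37.4 and 35.1 in macrophages, against 301, 242 and 141 in neutrophils (log2 fold change -2.34 ± 0.36, adjusted p = 6.1e-06).

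Among 12 C-type lectins, 5 were higher and 6 lower, and 2 instead of 5 were higher without neutrophil library 1. Mrc1, the mannose receptor CD206, had 2357, 1428, 3005 and 1892 in macrophages, against 184 and 309.8 in 2 decoded neutrophil libraries (log2 fold change 3.13 ± 0.52, adjusted p = 2e-05). Clec4e, which encodes the glycolipid receptor Mincle, had 498, 203, 310.4 and 283 in macrophages, against 7293, 13139.9 and 9529 in neutrophils (log2 fold change -4.98 ± 0.44, adjusted p = 1.1e-09). Clec4d, its partner, had 399, 160.0, 351 and 274 in macrophages, against 3392, 6277 and 4271 in neutrophils (log2 fold change -4.0 ± 0.38, adjusted p = 3.4e-09). Clec7a, the beta-glucan receptor Dectin-1, had 205, 227, 379.9 and 284 in macrophages, against 1149, 1906 and 1340.5 in neutrophils (log2 fold change -2.42 ± 0.36, adjusted p = 3.8e-06). The 3 activating lectins were lower in every macrophage library than in any neutrophil library. Of 15 Fc receptor and ITAM genes, 4 were higher and 7 lower, and 6 and 5 with quantile normalisation. Trem1, which amplifies inflammatory signals, had 222, 326, 436 and 185 in macrophages, against 2449, 7936 and 6427 in neutrophils (log2 fold change -4.17 ± 0.42, adjusted p = 8.4e-09), opposite in direction to Trem2. Fcgr2b, the inhibitory IgG receptor, had 950.5, 893, 1707 and 768 in macrophages, against 195, 488 and 321 in neutrophils (log2 fold change 1.71 ± 0.30, adjusted p = 3e-05). The kinase Syk, which acts below the ITAM adaptors, had 256, 299.6, 249 and 249 in macrophages, against 1617, 2228 and 1392 in neutrophils (log2 fold change -2.70 ± 0.24, adjusted p = 8.8e-10).

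Most genes that serve the uptake of dying cells and their digestion in lysosomes were higher in macrophages. Of 17 efferocytosis and scavenger genes, 12 were higher and 2 lower (median 1.98). With decimal points restored without the groups 12 could be tested, of which 6 were higher. Mertk had 201, 266, 292 and 300.2 in macrophages, against 39.8, 25.4 and 58.5 in neutrophils (log2 fold change 2.71 ± 0.40, adjusted p = 3.6e-06). Mertk is the receptor kinase that recognises phosphatidylserine on dying cells through the bridging protein Gas6. Gas6 had 178, 132, 174 and 130.1 in macrophages, against 11.4, 11.8 and 22.8 in neutrophils (log2 fold change 3.29 ± 0.54, adjusted p = 2.8e-05). Both the receptor and its bridging ligand were higher in every macrophage library. Stab1, a scavenger receptor that also binds phosphatidylserine, had 875, 402 and 927 in 3 decoded macrophage libraries, against 19.0, 60.9 and 131 in neutrophils (log2 fold change 3.66 ± 0.56, adjusted p = 7.2e-06), with a possible value between 91.2 and 912 in undecided macrophage library 4. Msr1, the class A scavenger receptor, had 2417, 1449, 2675 and 2803 in macrophages, against 375, 335 and 1031 in neutrophils (log2 fold change 2.16 ± 0.42, adjusted p = 0.00015). The lower genes were Scarb2 and Olr1. Olr1, a receptor for oxidised lipoprotein, had 70.2, 53.4 and 76.1 in 3 decoded macrophage libraries, against 764, 1937 and 2026 in neutrophils (log2 fold change -4.43 ± 0.53, adjusted p = 3e-07).

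Of 26 cathepsins and lysosomal genes, 21 were higher and 0 lower (median 1.48). Legumain, encoded by Lgmn, had 1798, 1986, 1863 and 1624 in macrophages, against 282, 171 and 344 in neutrophils (log2 fold change 2.82 ± 0.44, adjusted p = 6.5e-06). Progranulin, encoded by Grn, had 3214, 2499.9, 3366 and 3316 in macrophages, against 681, 835 and 921 in neutrophils (log2 fold change 1.93 ± 0.23, adjusted p = 1.4e-07). Lamp1, a lysosomal membrane protein, had 3025, 2405, 3475 and 2682 in macrophages, against 1019.9, 1117 and 934 in neutrophils (log2 fold change 1.49 ± 0.21, adjusted p = 1.7e-06). For all 3, every macrophage library exceeded every neutrophil library. Ctsc, which activates the serine proteases of granules, had 2402, 2091, 2089 and 1817 in macrophages, against 421, 337 and 740.1 in neutrophils (log2 fold change 2.14 ± 0.32, adjusted p = 4.3e-06). Ctsd, the aspartic protease of lysosomes, had 3617, 3586, 4484 and 3829.8 in macrophages, against 4203, 5016 and 4308 in neutrophils and did not pass (log2 fold change -0.22 ± 0.30, adjusted p = 0.54), while quantile normalisation turned its direction, to 0.91. Of 16 lipid-handling genes, 9 were higher and 1 lower (median 1.60). Plin2, which coats lipid droplets, was the lower one, with 996, 756, 915 and 870.4 in macrophages, against 1202, 2795 and 1798 in neutrophils (log2 fold change -1.05 ± 0.30, adjusted p = 0.0045). That call was lost with quantile normalisation, at -0.01, and without neutrophil library 2, at -0.74.

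Genes of MHC class II antigen presentation varied widely between macrophage libraries. Of 11 class II pathway genes, 4 were higher and 7 did not pass, while 7 were higher with quantile normalisation. H2-Aa had 949.7, 7028, 4875 and 667 in macrophages, against 1864, 433 and 848 in neutrophils, and the difference did not pass (log2 fold change 1.29 ± 0.76, adjusted p = 0.14). H2-Ab1 had 408, 4242, 2149.9 and 278 in macrophages, against 804, 161 and 595 in neutrophils, which did not pass either (log2 fold change 1.24 ± 0.76, adjusted p = 0.16). Macrophage libraries 2 and 3 were high and libraries 1 and 4 lay within the neutrophil range for both. With quantile normalisation both passed, at 2.21 for H2-Aa and 2.02 for H2-Ab1, and so they did without macrophage library 4, at 1.86 for each. Cd74, the invariant chain, had 2758, 23249, 13542 and 1709 in macrophages, against 3702 and 2585 in 2 decoded neutrophil libraries. Macrophage libraries 2 and 3 were again high, while library 4 lay below both decoded neutrophil values. The possible value of Cd74 lay between 94.8 and 948 in undecided neutrophil library 2. Ciita, the master activator of class II genes, had 22.2, 55.6, 26.0 and 10.8 in macrophages, against 5.69, 1 and 1 in neutrophils (log2 fold change 3.09 ± 0.62, adjusted p = 0.0002), with a higher value in every macrophage library, and 1.52 with a pseudocount of 10. Cathepsin S, encoded by Ctss, which trims the invariant chain, had 5144, 8479, 9065 and 5849.7 in macrophages, against 2609, 1303 and 1892 in neutrophils (log2 fold change 1.90 ± 0.43, adjusted p = 0.00056). In class I, 10 of 14 genes did not pass, among them B2m with 7344, 8148, 9885 and 6313 in macrophages, against 8946, 6546 and 6533 in neutrophils. With quantile normalisation 5 class I genes instead of 2 were higher, and B2m passed, at a log2 fold change of 1.13 against 0.11. Checkpoint and costimulatory ligands gave 3 higher and 5 lower of 15, beside 30.4% higher and 28.4% lower of all genes, and 5 and 4 with quantile normalisation. Cd274, which encodes PD-L1, had 128, 270.1, 228 and 383 in macrophages, against 2593, 4281 and 1684 in neutrophils (log2 fold change -3.49 ± 0.37, adjusted p = 2.4e-08). Pdcd1lg2, which encodes PD-L2, had 1.48, 20.4 and 25.8 in 3 decoded macrophage libraries, against 89.1, 139 and 84.1 in neutrophils (log2 fold change -3.19 ± 0.57, adjusted p = 5.5e-05), and -2.09 without macrophage library 1, with a possible value between 2.70 and 270 in undecided macrophage library 4. Both ligands of PD-1 were lower in every decoded macrophage library than in any neutrophil library. Cd83, a marker of activated antigen-presenting cells, had 578, 646, 957 and 591 in macrophages, against 140.3, 86.3 and 149.7 in neutrophils (log2 fold change 2.46 ± 0.50, adjusted p = 0.00018). Cd47, the signal that restrains phagocytosis, had 359.7, 323, 344 and 293 in macrophages, against 464, 967 and 713 in neutrophils (log2 fold change -1.05 ± 0.24, adjusted p = 0.00061), which did not pass with quantile normalisation (-0.22).

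Inflammatory cytokines stood out as neutrophil transcripts. Of 17 interleukin-1 and inflammasome genes, 0 were higher, 11 lower and 6 did not pass (median -2.80). With median-of-ratios rescaling or without neutrophil library 3, 1 was higher, and with decimal points restored without the groups 7 of 14 were lower. Il1b had 753, 1376, 416 and 278 in macrophages, against 12376, 45289 and 30048 in neutrophils (log2 fold change -5.44 ± 0.63, adjusted p = 8.4e-08). Il1a had 39.9, 141, 48.6 and 113 in macrophages, against 1314, 2070.3 and 1316 in neutrophils (log2 fold change -4.34 ± 0.46, adjusted p = 2.3e-08). Nlrp3, the sensor of the inflammasome that releases mature interleukin-1 beta, had 336, 402, 325 and 187 in macrophages, against 5386, 6047 and 5438 in neutrophils (log2 fold change -4.22 ± 0.35, adjusted p = 4.4e-10). The macrophage values of all 3 lay far below the lowest neutrophil value. Casp1, the protease of that inflammasome, had 100.4, 47.7, 82.0 and 73.4 in macrophages, against 96.7, 55.9 and 52.8 in neutrophils and did not pass (log2 fold change 0.15 ± 0.41, adjusted p = 0.76). Il1rap, the shared signalling chain of interleukin-1 receptors, had 50.2, 36.3, 23.2 and 36.7 in macrophages, against 688, 1392 and 1295 in neutrophils (log2 fold change -4.89 ± 0.29, adjusted p = 1.6e-12), and the log2 fold change was -1.4 with decimal points restored without the groups. Il18rap, the accessory chain of the interleukin-18 receptor, had 1.48, 10.2 and 7.02 in 3 decoded macrophage libraries, against 648, 1317 and 726 in neutrophils (log2 fold change -7.14 ± 0.45, adjusted p = 7.3e-12).

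Of 18 TNF and NF-kB genes, 17 were lower in macrophages and 0 were higher (median -2.51). Tnf had 84.2, 107, 91.3 and 53.5 in macrophages, against 1361, 2119 and 1089.5 in neutrophils (log2 fold change -4.15 ± 0.38, adjusted p = 2e-09), and -2.28 was its log2 fold change with decimal points restored without the groups. Tnfaip3, the A20 enzyme that ends NF-kB signalling, had 569, 919, 774 and 364 in macrophages, against 7005, 14922 and 8716 in neutrophils (log2 fold change -3.97 ± 0.43, adjusted p = 2.5e-08). Nfkbia, the inhibitor that holds NF-kB in the cytosol, had 232, 121, 193 and 145 in macrophages, against 1499.5, 3252 and 1540.1 in neutrophils (log2 fold change -3.54 ± 0.35, adjusted p = 5.4e-09). Feedback inhibitors and the cytokine itself were lower together, with no overlap. Nfkbiz, a nuclear co-activator of NF-kB target genes, had 220.1, 322, 189.8 and 209 in macrophages, against 3955, 9224 and 6918 in neutrophils (log2 fold change -4.77 ± 0.43, adjusted p = 1.2e-09). Birc3, an inhibitor of apoptosis, had 168, 121, 141 and 166 in macrophages, against 1172, 1204 and 1061 in neutrophils (log2 fold change -2.94 ± 0.23, adjusted p = 1.8e-10). The exception that did not pass was Nfkbib, with 38.4, 40.9, 45.2 and 21.6 in macrophages, against 30.3, 47.4 and 29.9 in neutrophils. Immediate early and heat shock genes gave 10 lower and 1 higher of 17. Dusp1, a phosphatase that switches off MAP kinases, had 371, 590.1, 1019 and 452 in macrophages, against 2586, 11279 and 8284 in neutrophils (log2 fold change -3.46 ± 0.50, adjusted p = 2.6e-06). Egr1 had 724, 401, 613 and 214 in macrophages, against 1826, 7658 and 5981 in neutrophils (log2 fold change -3.30 ± 0.55, adjusted p = 1.9e-05). Hspa8, the constitutive HSC70 chaperone, was the higher one, with 5479.7, 4168, 4604 and 4583 in macrophages, against 3397, 2196 and 2397 in neutrophils (log2 fold change 0.84 ± 0.28, adjusted p = 0.011), which did not pass without neutrophil library 2 (0.72).

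**Figure D3:**
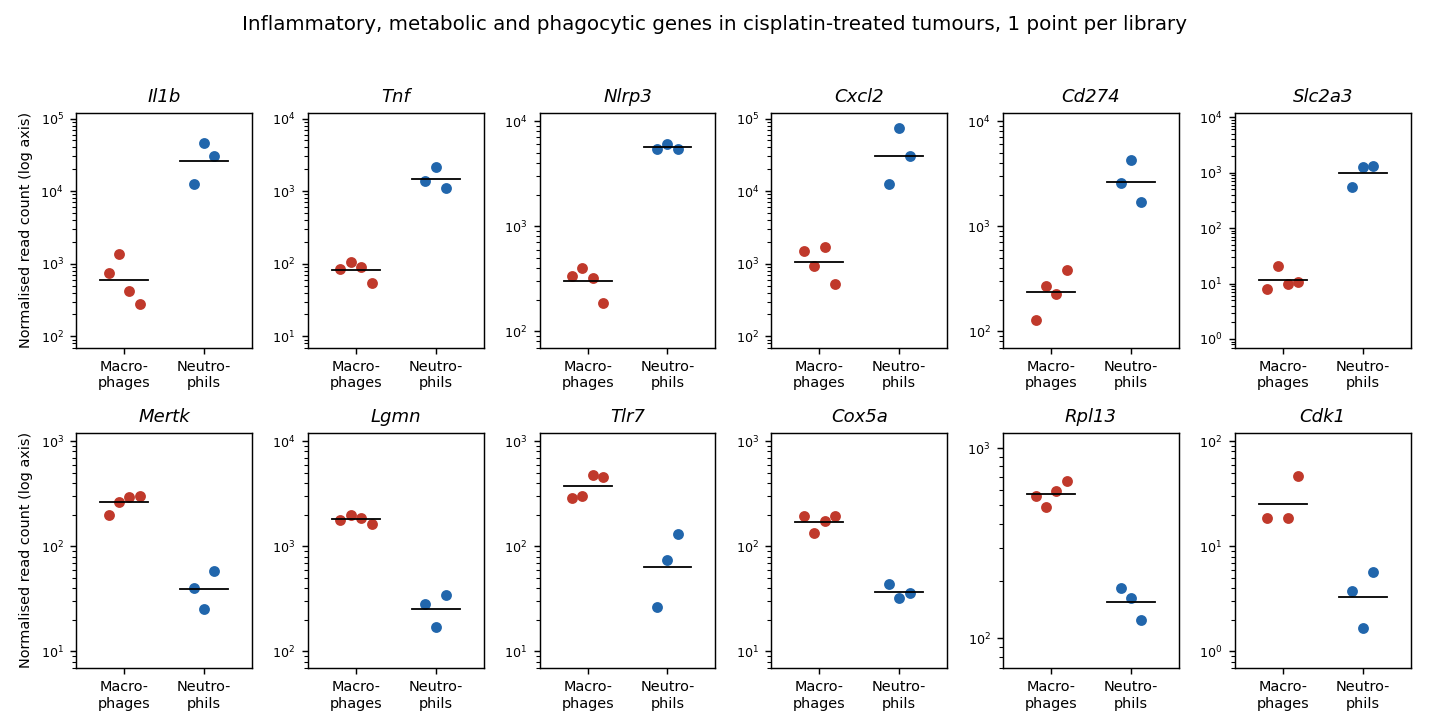
Values of 12 genes in each library on a log axis, macrophages (red, 4 libraries) left of neutrophils (blue, 3 libraries), with a bar at the geometric mean of the decoded libraries. Il1b, Tnf, Nlrp3, Cxcl2, Cd274 and Slc2a3 lie lower in every macrophage library, while Mertk, Lgmn, Tlr7, Cox5a and Rpl13 lie higher; Cdk1 lies higher in the 3 decoded macrophage libraries.

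Chemokines and their receptors divided between the cell types. Of 14 chemoattractant receptors, 3 were higher in macrophages, Cx3cr1 and Ccr2 among them, and 11 lower (median -2.58). Without neutrophil library 1, or without library 3, 12 could be tested and 1 was higher. Cx3cr1, the fractalkine receptor, had 862, 861, 737 and 724 in macrophages, against 106, 38.9 and 138 in neutrophils (log2 fold change 3.24 ± 0.50, adjusted p = 9.6e-06). Fpr2, a receptor for formylated peptides and for annexin A1, had 54.6, 25.0, 62.8 and 31.9 in macrophages, against 516, 2429 and 1330.5 in neutrophils (log2 fold change -4.83 ± 0.49, adjusted p = 8.4e-09). Neutrophil library 2 was the lowest neutrophil library for Cx3cr1 and the highest for Fpr2. Ccrl2, an atypical chemerin receptor, had 720.0, 801, 820.0 and 439.5 in macrophages, against 8849, 15107 and 7859 in neutrophils (log2 fold change -3.91 ± 0.39, adjusted p = 7.2e-09).

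Of 12 myeloid-attracting chemokines, 7 were higher and 4 lower, and 4 and 5 without neutrophil library 1. With decimal points restored without the groups, 2 were higher and 3 lower. The higher ones were monocyte attractants for the most part. Ccl7 had 281, 143, 644 and 176 in macrophages, against 15.2 and 67.0 in 2 decoded neutrophil libraries (log2 fold change 2.98 ± 0.63, adjusted p = 0.00049), and did not pass with decimal points restored without the groups (2.16), and its possible value lay between 5.08 and 508 in undecided neutrophil library 2. Ccl9 had 1744, 2913 and 2296 in 3 decoded macrophage libraries, against 178, 926 and 848 in neutrophils (log2 fold change 2.12 ± 0.62, adjusted p = 0.0048), and did not pass without neutrophil library 1 (1.35), with voom on decoded reads (1.4) or with the most probable place for every value (1.44), and its possible value lay between 3.40 and 340 in undecided macrophage library 2. Both exceeded the neutrophil range in every decoded macrophage library, while the undecided libraries leave an overlap possible. The lower ones were 3 ligands of CXCR2, Cxcl1, Cxcl2 and Cxcl3, and the CCR1 ligand Ccl3. Cxcl2 had 1498, 944, 1705 and 533 in macrophages, against 12707, 73585 and 30415 in neutrophils (log2 fold change -4.84 ± 0.63, adjusted p = 5.4e-07). Ccl3 had 114, 163, 177 and 79.9 in macrophages, against 2277, 22186 and 5105 in neutrophils (log2 fold change -5.63 ± 0.64, adjusted p = 6.7e-08). Cxcl1 had 606, 169, 331 and 152 in macrophages, against 1090.1, 2185 and 816 in neutrophils (log2 fold change -2.21 ± 0.57, adjusted p = 0.0021), and -1.43 with quantile normalisation. Neutrophil library 2 was the highest for each of the 3, several times above the other neutrophil libraries for Ccl3. Cxcr2 and the transcripts of its ligands were thus lower in macrophages together. Cxcl16, the ligand of CXCR6, had 669.8, 1169, 751 and 573 in macrophages, against 237, 71.1 and 155 in neutrophils (log2 fold change 2.46 ± 0.39, adjusted p = 1e-05). Cxcl10, a ligand of CXCR3, had 76.8, 82.8, 66.3 and 66.4 in macrophages, against 328, 209.9 and 258 in neutrophils (log2 fold change -1.83 ± 0.37, adjusted p = 0.00017).

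Adhesion genes gave 5 higher and 8 lower of 16, and 3 and 8 without neutrophil library 1. Selplg, the P-selectin ligand used in rolling, had 189, 196, 207 and 249 in macrophages, against 715, 1386 and 717 in neutrophils (log2 fold change -2.09 ± 0.26, adjusted p = 2.5e-07), and -1.35 with quantile normalisation. Icam1, the counter-receptor of beta-2 integrins, had 106, 209, 83.3 and 81.0 in macrophages, against 3424, 1107 and 1015 in neutrophils (log2 fold change -3.81 ± 0.46, adjusted p = 1.8e-07). Itgb5, which pairs with the alpha-v chain in vitronectin binding, had 259, 288, 291 and 362 in macrophages, against 55.0, 18.6 and 72.7 in neutrophils (log2 fold change 2.79 ± 0.45, adjusted p = 1.3e-05). Neutrophil library 1 stood well above the other neutrophils for Icam1, and the groups did not overlap for any of the 3.

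Glycolysis genes were lower in macrophages, while genes of oxidative phosphorylation and of the ribosome were higher. Of 22 glycolysis and glycogen genes, 17 were lower in macrophages, 0 were higher and 5 did not pass (median -1.41). Without neutrophil library 2, 11 of 20 were lower, and with quantile normalisation 14 of 22 were lower (median -1.25). Slc2a3 had 8.12, 20.4, 9.69 and 10.8 in macrophages, against 557, 1254 and 1323 in neutrophils (log2 fold change -6.28 ± 0.46, adjusted p = 5.5e-11). Slc2a1 had 255, 334, 399 and 172 in macrophages, against 1026, 3303 and 1443 in neutrophils (log2 fold change -2.61 ± 0.35, adjusted p = 7.3e-07). These glucose transporters, GLUT3 and GLUT1, were lower in every macrophage library. Pygl, the phosphorylase that mobilises glycogen, had 42.8, 63.5, 86.1 and 25.4 in macrophages, against 491, 1083 and 499 in neutrophils (log2 fold change -3.67 ± 0.38, adjusted p = 1.5e-08). Slc16a3, which exports lactate, had 87.1, 65.8, 112 and 72.9 in macrophages, against 500.5, 1706 and 1169 in neutrophils (log2 fold change -3.58 ± 0.40, adjusted p = 5.4e-08). Gapdh had 1718, 1468, 2130.1 and 1282 in macrophages, against 2311, 4659 and 1530.2 in neutrophils and did not pass (log2 fold change -0.65 ± 0.33, adjusted p = 0.088), though it did without neutrophil library 3 (-1.02). With quantile normalisation the direction of Gapdh turned, to 0.48, and it did not pass. Of 25 oxidative phosphorylation genes, 19 were higher and 0 lower (median 1.03). Cox5a, a subunit of cytochrome oxidase, had 195, 133, 174 and 194 in macrophages, against 43.6, 32.2 and 35.7 in neutrophils (log2 fold change 2.19 ± 0.30, adjusted p = 1.3e-06). Uqcrc2, a core subunit of complex III, had 89.4, 82.8, 119 and 110.1 in macrophages, against 39.8, 16.9 and 28.5 in neutrophils (log2 fold change 1.85 ± 0.33, adjusted p = 3.6e-05). All 24 cytosolic ribosomal protein genes were higher (median 1.51). All 24 were also higher with quantile normalisation and with median-of-ratios rescaling. Rpl13 had 562, 490.2, 595 and 667 in macrophages, against 184, 163 and 125 in neutrophils (log2 fold change 1.88 ± 0.25, adjusted p = 7.1e-07). Rpl32 had 586, 405, 594 and 753 in macrophages, against 203, 129 and 119.8 in neutrophils (log2 fold change 1.96 ± 0.29, adjusted p = 3e-06). Ribosomal protein genes have many processed pseudogenes that can take part of their reads.

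**Figure D4:**
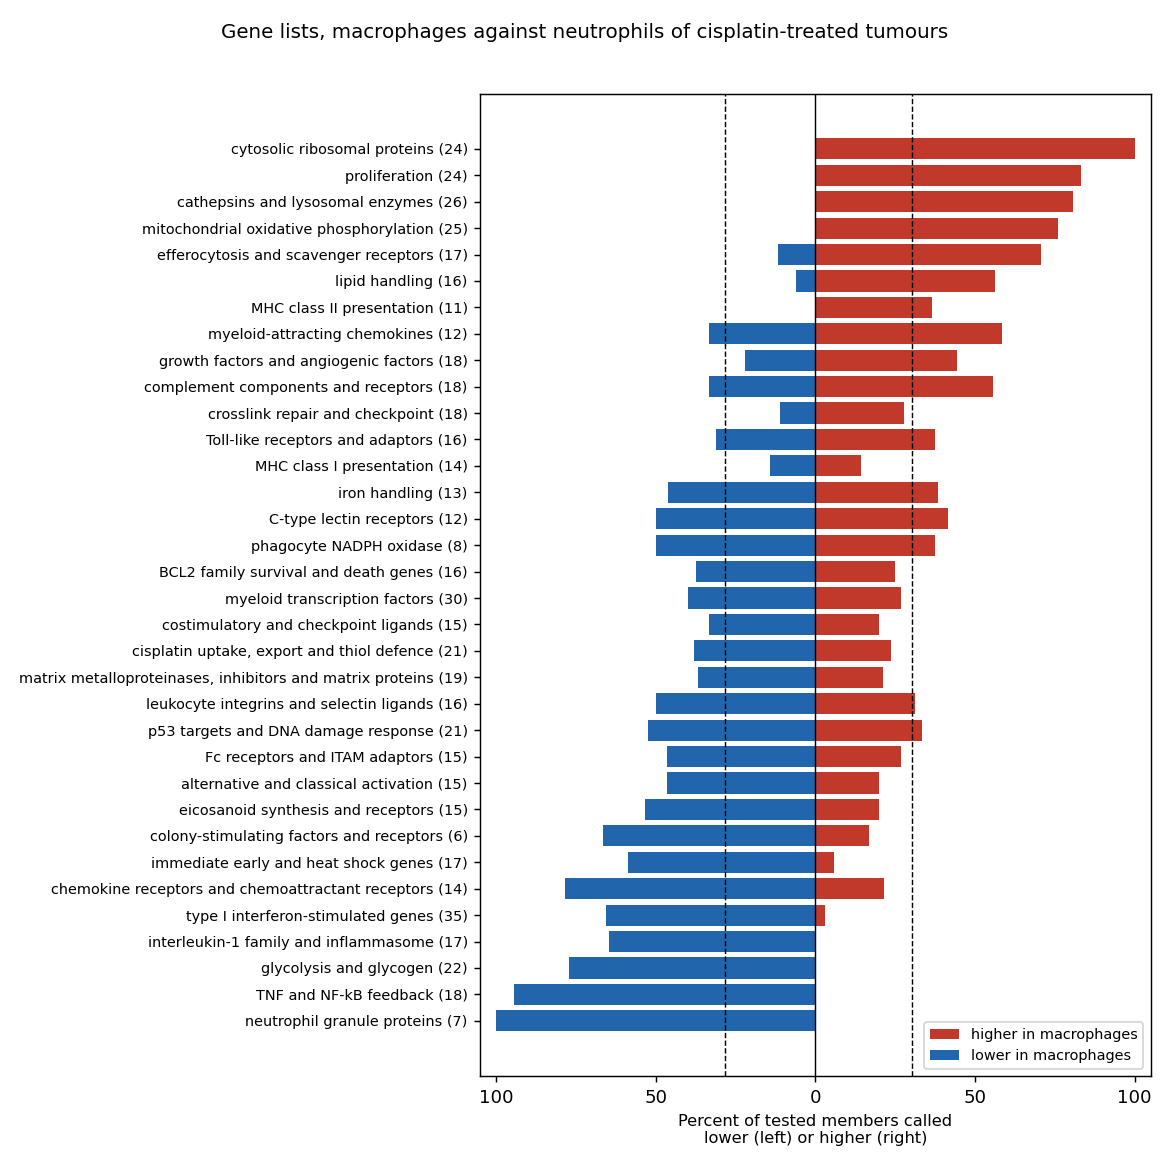
Members of each of 34 gene lists that were higher (red, to the right) or lower (blue, to the left) in macrophages than in neutrophils at an adjusted p under 0.05, as a percent of the members tested, with the number tested after the name. Dashed lines mark the shares over all 8996 genes, 30.4% higher and 28.4% lower; ribosomal, lysosomal and oxidative phosphorylation lists extend to the right and NF-kB, granule and glycolysis lists to the left.

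Most cell cycle genes tested were higher in macrophages. Of 24 proliferation genes, 20 were higher and 0 lower (median 1.85), and 12 were higher without neutrophil library 2. Cdk1, the mitotic kinase, had 18.5, 18.5 and 47.0 in 3 decoded macrophage libraries, against 3.79, 1.69 and 5.70 in neutrophils (log2 fold change 2.57 ± 0.51, adjusted p = 0.0002), with a possible value between 3.40 and 340 in undecided macrophage library 2. Rrm2, which makes deoxynucleotides, had 45.0, 25.0, 23.5 and 83.2 in macrophages, against 5.69, 3.39 and 8.56 in neutrophils (log2 fold change 2.60 ± 0.54, adjusted p = 0.00029). Birc5, which encodes survivin, had 25.8, 21.6, 21.5 and 46.4 in macrophages, against 1, 1.69 and 5.70 in neutrophils (log2 fold change 3.10 ± 0.65, adjusted p = 0.00028). Macrophage library 4 was the highest of the decoded libraries and neutrophil libraries 1 and 2 were near the lowest listed values for these 3 genes. With a pseudocount of 10 the log2 fold changes shrank to 1.4 for Cdk1, 1.65 for Rrm2 and 1.58 for Birc5, and Cdk1 did not pass with voom (2.14). Mki67 had 503, 389 and 535 in 3 decoded macrophage libraries, against 756, 156 and 327 in neutrophils and did not pass (log2 fold change 0.48 ± 0.60, adjusted p = 0.5). Its possible value lay between 19.8 and 198 in undecided macrophage library 3. Without the undecided values, the list summed to 831 to 2239 in macrophages and 615 to 1584 in neutrophils, so the sums overlapped.

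Effector enzymes were split within their families. All 7 granule genes tested were lower in macrophages (median -6.55). Of 8 NADPH oxidase genes, 3 were higher and 4 lower, and 1 of 7 was higher without neutrophil library 3. The membrane subunit Cybb had 901, 2398, 1373 and 1009.7 in macrophages, against 485, 286 and 513 in neutrophils (log2 fold change 1.66 ± 0.38, adjusted p = 0.0006). The cytosolic subunit Ncf1 and the GTPase Rac2, which joins the complex, were lower. Ncf1 had 346, 221, 487 and 489.7 in macrophages, against 1062, 1471 and 1224 in neutrophils (log2 fold change -1.75 ± 0.30, adjusted p = 2.1e-05). Rac2 had 326, 352, 368 and 351 in macrophages, against 1401, 1539 and 1115 in neutrophils (log2 fold change -1.94 ± 0.26, adjusted p = 1.2e-06). No library of one group entered the range of the other for any of these 3. Quantile normalisation gave -0.87 for Ncf1 and -1.08 for Rac2. Eicosanoid genes gave 3 higher and 8 lower of 15, and 4 and 4 with quantile normalisation. Ptgs2, the inducible cyclooxygenase, had 402, 595 and 159.7 in 3 decoded macrophage libraries, against 3081, 15583 and 15233 in neutrophils (log2 fold change -4.74 ± 0.84, adjusted p = 4.5e-05). Tbxas1, thromboxane synthase, had 87.1, 97.6, 214 and 129 in macrophages, against 7.58, 8.46 and 22.8 in neutrophils (log2 fold change 3.33 ± 0.60, adjusted p = 6.8e-05). Hpgds, which makes prostaglandin D2, had 179, 286, 124 and 163 in macrophages, against 39.8, 18.6 and 39.9 in neutrophils (log2 fold change 2.50 ± 0.52, adjusted p = 0.00023).

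The lists of this paragraph stand beside 30.4% higher and 28.4% lower of all genes. Of 19 matrix genes, 4 were higher and 7 lower. Fibronectin, encoded by Fn1, had 9806, 5507, 12602 and 12181 in macrophages, against 2046, 1559 and 5954 in neutrophils (log2 fold change 1.84 ± 0.59, adjusted p = 0.0095). Neutrophil library 3, which had the highest collagen values, was also the highest neutrophil library for Fn1 and overlapped with macrophage library 2, and Fn1 did not pass without neutrophil library 2 (1.45). Among 18 growth and angiogenic factors, 8 were higher and 4 lower, and 5 and 3 without neutrophil library 2. Pdgfb had 24.4, 15.9, 22.8 and 29.2 in macrophages, against 1, 1 and 2.85 in neutrophils (log2 fold change 3.24 ± 0.49, adjusted p = 7.3e-06). Prok2, the prokineticin also called Bv8, had 1, 2.27, 1 and 1 in macrophages, against 112, 256 and 48.5 in neutrophils (log2 fold change -5.64 ± 0.48, adjusted p = 7.8e-10). Both were close to the lowest listed value in one cell type, and with a pseudocount of 10 they had 1.5 for Pdgfb and -3.45 for Prok2. Of 15 activation genes, 3 were higher and 7 lower, and 1 and 6 without neutrophil library 2. Arg1, the arginine-degrading enzyme of alternatively activated macrophages, had 1162, 328, 3555 and 727 in macrophages, against 212, 396 and 519 in neutrophils (log2 fold change 1.5 ± 0.63, adjusted p = 0.042), with macrophage library 3 highest and library 2 inside the neutrophil range. It did not pass without macrophage library 1 (1.42) or 3 (0.89), without neutrophil library 1 (1.13) or 2 (1.58), or with decimal points restored without the groups (adjusted p = 0.22). Nos2, which makes nitric oxide from the same amino acid, had 2.22, 7.94, 1.51 and 1 in macrophages, against 58.8 and 225 in 2 decoded neutrophil libraries (log2 fold change -5.07 ± 0.82, adjusted p = 2e-05), and -3.30 with a pseudocount of 10. Its possible value lay between 5.70 and 570 in undecided neutrophil library 3, which leaves an overlap possible. With the most probable place for every value the log2 fold change of Nos2 was -3.70.

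Genes of the p53 pathway, DNA repair and cisplatin handling held members of both directions. All libraries compared came from cisplatin-treated mice, so these counts compare the cell types and measure no response to the drug. Of 21 p53 targets and damage response genes, 7 were higher and 11 lower (median -0.90). Bax had 119.6, 110.1, 102 and 86.4 in macrophages, against 15.2, 35.5 and 9.98 in neutrophils (log2 fold change 2.49 ± 0.39, adjusted p = 8.2e-06). This effector of mitochondrial apoptosis was above the neutrophil range in every macrophage library. The death receptor gene Fas had 7.39, 6.81, 14.0 and 9.18 in macrophages, against 125, 171 and 104 in neutrophils (log2 fold change -3.72 ± 0.36, adjusted p = 9.2e-09). Btg2, an antiproliferative p53 target, had 87.1, 278, 194 and 110.1 in macrophages, against 1536, 3181 and 3109 in neutrophils (log2 fold change -4.03 ± 0.40, adjusted p = 1.2e-08). The p21 gene Cdkn1a, chosen after its values were seen, had 1819.7, 2383, 2242 and 1840.1 in macrophages, against 2508, 7491 and 4746 in neutrophils (log2 fold change -1.12 ± 0.38, adjusted p = 0.013). Its call was lost without neutrophil library 2 (-0.75), and its direction turned with quantile normalisation (0.18). Mdm2, the ligase that degrades p53, had 949, 967, 799 and 804 in macrophages, against 1050.2, 1442 and 1127 in neutrophils and did not pass (log2 fold change -0.45 ± 0.26, adjusted p = 0.14), and had 0.52 with quantile normalisation.

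Crosslink repair and checkpoint genes gave 5 higher, 2 lower and 11 not passed of 18, beside 30.4% higher and 28.4% lower of all genes. In this list 9 were higher with median-of-ratios rescaling and 2 without neutrophil library 2. Parp1, a sensor of DNA breaks, had 106, 101, 89.1 and 125 in macrophages, against 36.0 and 11.8 in 2 decoded neutrophil libraries (log2 fold change 2.28 ± 0.48, adjusted p = 0.00033), with a possible value between 5.70 and 570 in undecided neutrophil library 3. Rev3l, the catalytic subunit of the translesion polymerase zeta, had 87.9, 115, 68.4 and 63.2 in macrophages, against 235, 156 and 169.7 in neutrophils (log2 fold change -1.17 ± 0.26, adjusted p = 0.00043). Of 21 genes of cisplatin uptake, export and thiol defence, 5 were higher and 8 lower, and 7 and 5 with quantile normalisation. The metallothionein genes, whose products bind platinum, were higher. Mt1 had 199, 139.6, 317 and 171 in macrophages, against 56.9, 55.9 and 27.1 in neutrophils (log2 fold change 2.13 ± 0.35, adjusted p = 1.6e-05). Mt2 had 98.2, 34.0, 238 and 61.0 in macrophages, against 11.4, 11.8 and 15.7 in neutrophils (log2 fold change 2.61 ± 0.55, adjusted p = 0.00031). Macrophage library 3 was the highest for both, and no neutrophil library reached the macrophages. Glutathione genes went both ways. The glutathione transferase Gstp1 had 32.5, 26.1, 42.6 and 35.6 in macrophages, against 5.69, 10.2 and 12.8 in neutrophils (log2 fold change 1.78 ± 0.48, adjusted p = 0.0032). Gsto1, another transferase, had 39.1, 46.5, 36.8 and 27.5 in macrophages, against 24.6, 6.77 and 11.4 in neutrophils (log2 fold change 1.49 ± 0.47, adjusted p = 0.009), but did not pass without neutrophil library 2 (1.09). Gsr, glutathione reductase, had 14.8, 78.3 and 108 in 3 decoded macrophage libraries, against 1340.3, 2304 and 1737 in neutrophils (log2 fold change -5.09 ± 0.52, adjusted p = 1.7e-08). Slc7a11, which imports cystine for glutathione, had 112, 485 and 313 in 3 decoded macrophage libraries, against 4368, 3235 and 4977 in neutrophils (log2 fold change -4.0 ± 0.49, adjusted p = 3e-07). Slc31a1, the copper transporter that takes up cisplatin, had 236, 196, 287 and 179 in macrophages, against 413, 482 and 271 in neutrophils (log2 fold change -0.77 ± 0.23, adjusted p = 0.0054), with an overlap of its values, and did not pass with quantile normalisation (-0.18).

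Of 16 BCL2 family genes, 4 were higher and 6 lower, shares near the 30.4% and 28.4% of all genes. Mcl1 had 2438, 2040.3, 3026 and 2379.5 in macrophages, against 8781, 14553 and 9958 in neutrophils (log2 fold change -2.15 ± 0.26, adjusted p = 1.4e-07). Mcl1 is the short-lived protein on which neutrophil survival depends. Bcl2l1, which encodes BCL-XL, had 39.9, 79.4, 95.1 and 73.4 in macrophages, against 246, 912 and 351 in neutrophils (log2 fold change -2.63 ± 0.38, adjusted p = 2.5e-06). Bcl2 itself went the other way, with 31.0, 31.8, 39.8 and 38.9 in macrophages, against 5.69, 1 and 21.4 in neutrophils (log2 fold change 2.43 ± 0.59, adjusted p = 0.0011), 1.56 without neutrophil library 2 and 1.36 with a pseudocount of 10. The values of Mcl1 did not overlap, and neutrophil library 2 was the highest, and the log2 fold change was -1.10 with quantile normalisation. Of 13 iron genes, 5 were higher and 6 lower, and 2 and 6 without neutrophil library 1. Slc40a1, the iron exporter ferroportin, had 29.5, 40.9, 19.4 and 1 in macrophages, against 396, 340.3 and 181 in neutrophils (log2 fold change -4.27 ± 0.68, adjusted p = 1.1e-05). Fth1, the ferritin heavy chain, had 8720.2, 10618, 10759 and 6669 in macrophages, against 20777, 61542 and 13811 in neutrophils (log2 fold change -1.53 ± 0.47, adjusted p = 0.0069), which did not pass without neutrophil library 2 (-0.91) or with quantile normalisation (-0.28).

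Many interferon-stimulated genes were lower in macrophages. Of 35 tested, 1 was higher, 23 were lower and 11 did not pass (median -1.55). With decimal points restored without the groups, 14 of 29 were lower. Ifitm1 had 27.3, 9.08, 21.7 and 11.3 in macrophages, against 1534, 2329 and 1269 in neutrophils (log2 fold change -6.62 ± 0.48, adjusted p = 3.4e-11). Slfn4 had 167, 183, 172 and 129.6 in macrophages, against 5735, 7051 and 6978 in neutrophils (log2 fold change -5.34 ± 0.56, adjusted p = 2.6e-08). Ifit1 had 55.4, 89.6, 53.8 and 23.2 in macrophages, against 935, 332 and 827 in neutrophils (log2 fold change -3.64 ± 0.41, adjusted p = 3.5e-07). Ifitm and Slfn genes belong to families of similar copies, among which reads may be split. Ifit1 had a log2 fold change of -2.05 with decimal points restored without the groups. The single higher gene was Bst2, which tethers budding virus, with 31.0, 88.5, 34.9 and 22.7 in macrophages, against 11.4, 1 and 7.13 in neutrophils (log2 fold change 2.75 ± 0.69, adjusted p = 0.0017). It did not pass with voom (3.07) and had 1.63 with a pseudocount of 10.

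Whether the difference between the cell types was itself different under cisplatin was tested as a difference of differences, the cell type difference under cisplatin minus that under control antibody. None of 9391 genes was higher (0%) and 1 was lower (0.0106%) at an adjusted p under 0.05 with limma, while 557 genes had an unadjusted p under 0.05. The gene that passed was Klhl6 (chr16:19946496-19983037, minus strand, GENCODE vM21), which encodes an adaptor of a cullin ubiquitin ligase known from B cells. Under cisplatin it had 30.3, 32.9, 45.8 and 80.5 in macrophages, against 758, 1243 and 823 in neutrophils. Under control antibody it had 26.6, 56.0, 33.7 and 32.4 in macrophages, against 166, 78.3, 57.4 and 112 in neutrophils. Neutrophils of cisplatin-treated tumours were higher than the libraries of the other 3 groups, while macrophages of both treatments had similar values. The difference of differences was -2.96 ± 0.49 (limma, adjusted p = 0.022). Over 26 alternatives its difference of differences lay between -3.25 and -2.47, and it passed in 14 and did not in 12. The 12 were array weights, voom, quantile normalisation, a fit to the libraries of the 4 groups alone, the most probable place for every value, decimal points restored without the groups, and the omission of any of 6 libraries. These were macrophage library 3 and neutrophil libraries 2 and 3 of the cisplatin group, and macrophage library 2 and neutrophil libraries 2 and 3 of the control group. The adjusted p ran from 0.0027 to 0.88 over the alternatives. Ptpn22, a phosphatase of lymphocyte and myeloid signalling, came next among the lower genes without passing, though it passed in 5 of 24 alternatives. It had 37.7, 18.2, 14.0 and 25.4 in macrophages, against 283 and 355 in 2 decoded neutrophil libraries under cisplatin and 21.1, 30.0 and 14.5 in 3 decoded macrophage libraries, against 72.6, 19.2, 27.8 and 46.3 in neutrophils under control antibody (difference of differences -2.99 ± 0.58, limma, adjusted p = 0.094). Etv1, an ETS transcription factor, had the smallest p among the genes with a positive difference, and passed in 2 of 26 alternatives. It had 177, 182, 152 and 196 in macrophages, against 11.4, 25.4 and 37.1 in neutrophils under cisplatin and 11.4, 5.68, 15.8 and 5.02 in macrophages, against 13.3, 8.87, 9.25 and 5.55 in neutrophils under control antibody (difference of differences 2.98 ± 0.60, limma, adjusted p = 0.094). Macrophages of cisplatin-treated tumours were above the libraries of the other 3 groups. The leukotriene-forming Alox5 had 91.6, 142 and 161 in 3 decoded macrophage libraries, against 227, 452 and 344 in neutrophils under cisplatin and 5.49, 9.73, 17.9 and 12.8 in macrophages, against 120.0, 177, 187 and 217 in neutrophils under control antibody (difference of differences 2.54 ± 0.53, limma, adjusted p = 0.12), and passed in 1 of 26 alternatives, while it was 0.10 (adjusted p = 0.99) with decimal points restored without the groups.

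**Figure D5:**
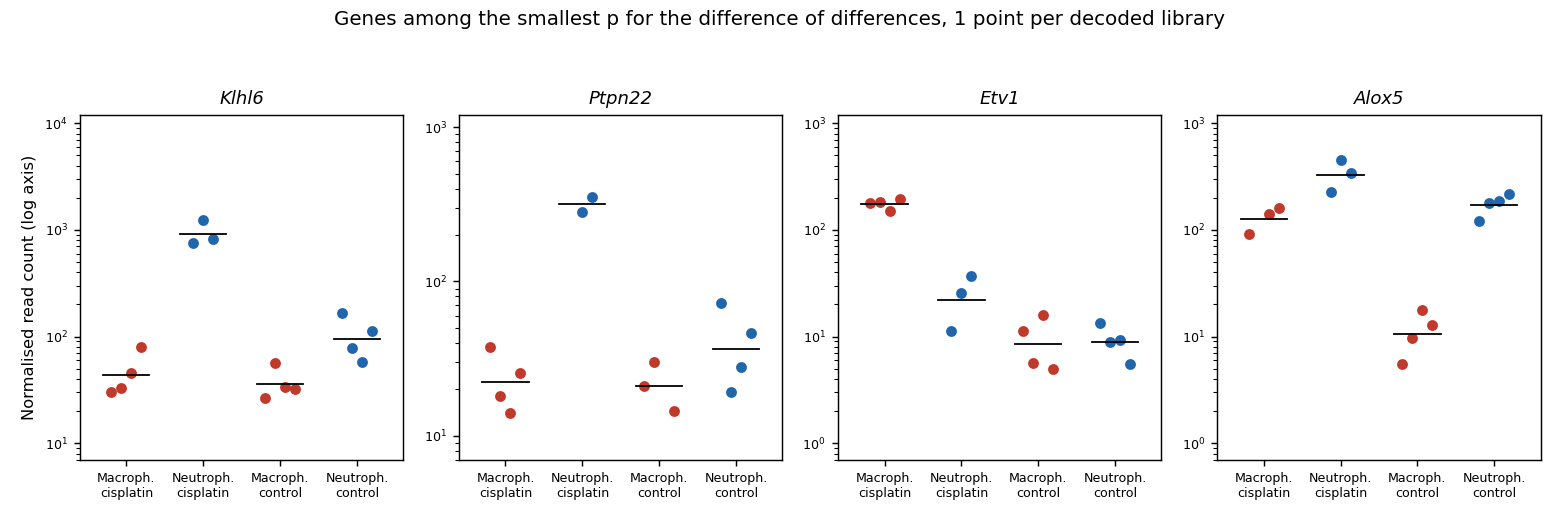
Values of Klhl6, Ptpn22, Etv1 and Alox5 on a log axis in macrophages (red) and neutrophils (blue) of cisplatin-treated tumours and of control antibody tumours, 1 point per decoded library with a bar at the geometric mean. Klhl6 is high in the cisplatin neutrophils alone, and Etv1 in the cisplatin macrophages alone; of the 4 genes Klhl6 passed the test of the difference of differences.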

How the data were processed

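RNA was measured in sorted leukocytes, and 4 macrophage and 3 neutrophil libraries of cisplatin-treated tumours were compared, with 4 libraries of each cell type without cisplatin for the difference of differences. The unit of the deposited table is a signal, in which the authors scaled the reads of each gene by 1 factor per library; the lowest listed value is 1. CASAVA 1.8, TopHat2 2.0.11, Partek 6.6, R 3.3.1 and DESeq2 are named, per the submitters' processing notes, with build mm10. Filters, annotation and strand are not given in the sources used here. Many deposited values under 1000 had lost their decimal point. Its place was restored with the requirement of whole reads (tolerance 0.02 reads) and, where several places were possible (67.3% of values in the 7 libraries), with the level of the gene in its cell type, group and library; values with a probability under 0.95 were left out. Since the group helps to place the point, a decoding without the groups was an alternative. The precision is limited by the decoded depth, 1000623 to 7498248 reads per library.

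limma 3.58.1 was run in R 4.3.3 on log2(value + 1), with moderated variances that follow a trend, over all 27 libraries in 8 groups. Genes needed a value of 10 in 2 libraries and 2 decoded libraries per group. The p-values were adjusted by the Benjamini-Hochberg method over all genes tested, with limma's treat for more than 2-fold. Fold changes on this scale understate the change of low genes. No count model was the main test, since the deposited values are not counts, and voom on decoded reads was an alternative. The procedure was tested on simulated data. Members and gene lists were chosen with earlier results of these data known. Named genes are cell type markers, the largest differences among non-overlapping genes decoded in all 7 libraries, the members of each list with the smallest adjusted p, the most abundant members that did not pass, and the smallest p of the difference of differences; the text names a part of them, and some items are not reported here. Csf1, Spi1 and Cdkn1a were chosen after their values were seen. Promoter sequences are RefSeq's (GRCm38.p6), matched by symbol for 6917 genes. Alternatives covered the pseudocount, filter, scaling, weights, decoding, threshold, libraries in the fit and the omission of each library.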

Additional observations from a re-analysis of the deposited data

Results flagged for a closer look

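The gene that differed in the difference of differences was Klhl6, at -2.96 on the log2 scale (limma, adjusted p = 0.022), with 758, 1243 and 823 in neutrophils of cisplatin-treated tumours and 57.4 to 166 in neutrophils of control antibody tumours. Among 153 genes named in the text with 4 decoded macrophage values that were not all equal, 8 had 1 macrophage library of cisplatin-treated tumours far from the other 3, by Dixon's gap on log2(value + 1); chance flags about 1 in 20 groups. Macrophage library 2 was the one apart in 5 of them. It was low for Csf1r (2002), Maf (234.9) and Grn (2500), and high for Syk (299.6) and Prok2 (2.27). For Prok2 the other 3 libraries are listed at 1, the lowest listed value. Library 1 was low for Il1r2 (10.34). Library 4 was high for Pglyrp1 (1.62) and library 3 for Csf3 (2.367), where the other 3 libraries are listed at 1. No cause was tested.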

How the results depend on the processing

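No paired analysis was possible because the labels give no replicate numbers that groups share. The restored decimal points limit the precision, since 67.3% of values in the 7 libraries had several possible places. Array weights, no filter, a pseudocount of 0.5, the most probable place for every value and a fit to the groups' libraries kept the counts of genes higher and lower within 1.5 times. A filter of 50 in 3 libraries gave 1365 genes higher and 343 more than 2-fold higher, among 4727 tested. Only values with 1 possible place left 1940 genes, with 296 higher, 847 lower, 45 more than 2-fold higher and 282 more than 2-fold lower. Decoding without the groups gave 114 more than 2-fold higher and 393 lower, voom gave 347 higher, a pseudocount of 10 gave 244 and an adjusted p of 0.01 gave 217. Median-of-ratios rescaling moved the share of higher genes among more-than-2-fold calls to 49%, against 35.7%. Leaving out 1 library at a time gave 2052 to 2644 genes higher, 2086 to 2516 lower, 232 to 557 more than 2-fold higher (232 without neutrophil library 2) and 696 to 997 more than 2-fold lower. For the difference of differences, leaving out 1 library gave 0 to 0 genes higher and 0 to 2 lower. A pseudocount of 10 gave 1 higher and 2 lower, and quantile normalisation 3 higher and 0 lower. Voom and the most probable places gave 2 lower each, and array weights, decoding without the groups, values with 1 possible place, the groups' libraries alone and an adjusted p of 0.01 gave 0 lower. Not every named gene could be recomputed: 126 could with decimal points restored without the groups, and 89 with only values of 1 possible place. C1qa, Adgre1, Trem2, Cxcr2, Mmp9, Hdc, Mertk, Slc2a3 and Cox5a were among those in neither, so their results rest on a decoding that used the groups. The same holds for Fcrls, Slco2b1, Enpp1, Fcgrt, Hcar2, Sgms2, Maf, Irf8 and Cebpa. Of 3034 recomputed fold changes of 168 named genes, 2975 kept their direction and side of the threshold, 31 no longer passed, 8 newly passed and 20, in 11 genes, changed direction. In 3 of the 20 the gene passed in one of the fits, each with quantile normalisation: Ctsd at 0.91, Cdkn1a at 0.18 and Mdm2 at 0.52. The other 17 did not pass in either fit. With quantile normalisation these were Gapdh at 0.48, Csf2ra at 0.37 and Nfkbib at -0.09. With voom Nfkbib had -0.01. The others came from leaving out 1 library of the comparison at a time, which gave -2.46 to 0.98 for Col1a1, -0.73 to 0.16 for Csf2ra, -0.01 to 0.26 for B2m, -0.00 to 0.43 for Casp1, -0.11 to 0.23 for Nfkbib, -0.08 to 1.06 for Mki67 and -0.18 to 0.23 for Ly96. The direction of Col1a1, Csf2ra and Casp1 turned without neutrophil library 3 and that of Mki67 without neutrophil library 2. The cause was not tested.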
